A study of Mus musculus with 2 samples.

Results

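The regions described are retained introns, stretches that the GENCODE M21 annotation splices out of some transcripts of a gene and that sequenced RNAs of the same gene kept inside an exon. An intron of an annotated (Known class) transcript model entered when it lay wholly within an exon of another model of its gene that had 2 or more exons. Reads of such models were counted as retaining reads, and reads of models that carried exactly this intron as spliced reads. Introns with 1 or more retaining read in each library and 20 or more reads in sum were kept, so the introns were chosen by their retaining and spliced read counts. This gave 2605 introns in 1536 genes, out of 9695 introns that lay inside an exon of another model and had 20 or more reads, and out of 65639 annotated introns with 20 or more reads. The retained share is the retaining reads as a percent of retaining and spliced reads. Because of this choice, shares of the 2605 introns are descriptions.

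The samples were gastrocnemius, a calf muscle, from male B6CASTF1/J mice aged 10 days, an F1 hybrid strain, with no treatment and no control group. Total RNA, 2 micrograms per library, was sequenced as long reads that can cover a transcript from end to end. The 2 libraries form 1 group of 2 biological replicates, numbered as separate males in the labels. Comparisons between them are comparisons of those libraries, and animal and version of the cited pipeline document (3.1 and 3.0) cannot be told apart. The labels give total RNA, so nuclear and cytoplasmic molecules were both sampled and cannot be told apart.

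Introns are removed by the spliceosome, which recognises the donor site, usually GT, at the 5′ end of the intron and the acceptor site, usually AG, at its 3′ end. An intron can stay in a transcript because splicing is late or regulated, and a retained coding intron often brings a stop codon that shortens the protein or exposes the RNA to nonsense-mediated decay. Short introns rich in G and C are often reported as retained, and genes of splicing factors are known to use retention to control their own level.

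The retained shares formed separate clusters at low and high values, and the introns are described below in 2 groups divided at a mean share of 50%, a division made after the values were seen. The mostly spliced group held 1827 introns in 1119 genes and the mostly unspliced group 778 introns in 571 genes, with 75 introns between 40% and 60%. In 420 introns of the mostly unspliced group no spliced read was found in either library, so the name retained intron rests there on the annotation alone. Of the 778, 20 were gaps of under 30 bases between annotated exons, too short for an ordinary intron.

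The sequences below show introns that carry these patterns, from GENCODE M21 transcript sequences on mm10, written 5′ to 3′ with the first and last pair of bases, the donor and acceptor, in capitals. The first 6 are mostly spliced coding introns, short and each bounded by GT and AG.
Map7d1, 96 bases, chr4:126237060-126237155, minus strand: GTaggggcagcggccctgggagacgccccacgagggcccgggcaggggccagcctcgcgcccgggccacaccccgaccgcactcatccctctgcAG
Tmem52, 115 bases, chr4:155469347-155469461, plus strand: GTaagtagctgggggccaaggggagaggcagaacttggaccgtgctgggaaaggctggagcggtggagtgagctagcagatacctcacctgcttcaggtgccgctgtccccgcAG
Nexn, 85 bases, chr3:152237580-152237664, minus strand: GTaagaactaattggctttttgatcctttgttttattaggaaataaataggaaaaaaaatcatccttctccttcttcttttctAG
Hnrnpl, 111 bases, chr7:28818533-28818643, plus strand: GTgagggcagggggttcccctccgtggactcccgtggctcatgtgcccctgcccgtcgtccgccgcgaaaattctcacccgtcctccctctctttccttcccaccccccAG
Aldoa, 95 bases, chr7:126797549-126797643, minus strand: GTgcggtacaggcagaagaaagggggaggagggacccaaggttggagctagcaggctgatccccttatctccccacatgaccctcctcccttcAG
Mief2, 194 bases, chr11:60730436-60730629, plus strand: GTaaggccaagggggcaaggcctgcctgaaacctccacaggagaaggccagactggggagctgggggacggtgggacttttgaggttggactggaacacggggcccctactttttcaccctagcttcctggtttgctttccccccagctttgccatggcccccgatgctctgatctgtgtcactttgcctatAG
The next 5 are mostly unspliced coding stretches, shown because annotated protein-coding transcripts keep them and none holds a stop codon in the frame of the annotated coding sequence.
Cdkn1c, 72 bases, chr7:143460027-143460098, minus strand: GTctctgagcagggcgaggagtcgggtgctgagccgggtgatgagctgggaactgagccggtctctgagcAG
Maged2, 207 bases, chrX:150811949-150812155, minus strand: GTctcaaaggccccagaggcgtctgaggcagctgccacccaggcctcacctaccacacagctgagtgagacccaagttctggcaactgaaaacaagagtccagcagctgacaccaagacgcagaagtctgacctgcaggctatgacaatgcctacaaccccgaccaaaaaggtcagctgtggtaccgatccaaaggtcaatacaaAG
Bsg, 115 bases, chr10:79710725-79710839, plus strand: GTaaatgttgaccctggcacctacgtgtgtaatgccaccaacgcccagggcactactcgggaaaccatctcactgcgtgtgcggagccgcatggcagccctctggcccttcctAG
Hsp90ab1, 37 bases, chr17:45571482-45571518, minus strand: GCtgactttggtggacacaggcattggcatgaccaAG
Rpl29, 96 bases, chr9:106431333-106431428, plus strand: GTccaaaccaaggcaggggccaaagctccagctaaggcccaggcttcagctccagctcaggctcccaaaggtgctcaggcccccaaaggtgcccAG
The Hsp90ab1 stretch begins with GC. The last sequence is a window around an annotated gap of 1 base in Oaz1, the base in capitals.
Oaz1, 30 bases, chr10:80828281-80828310, plus strand: ctcggtggtgctccTgatgtccctcaccca

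Over all 2605 introns the median retained share was 8.0% in replicate 1 and 7.14% in replicate 2. In the mostly spliced group it was 3.70% and 3.45%, with a middle range (quartiles of the mean share) of 1.42% to 9.82%. In the mostly unspliced group it was 100% in both libraries. A mean share under 10% was found in 1376 introns and one over 90% in 621, so few introns were retained in about as many reads as were spliced. The rule's limit was low for many introns: 817 mostly spliced ones had 2 or fewer retaining reads in each library.

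**Figure D1:**
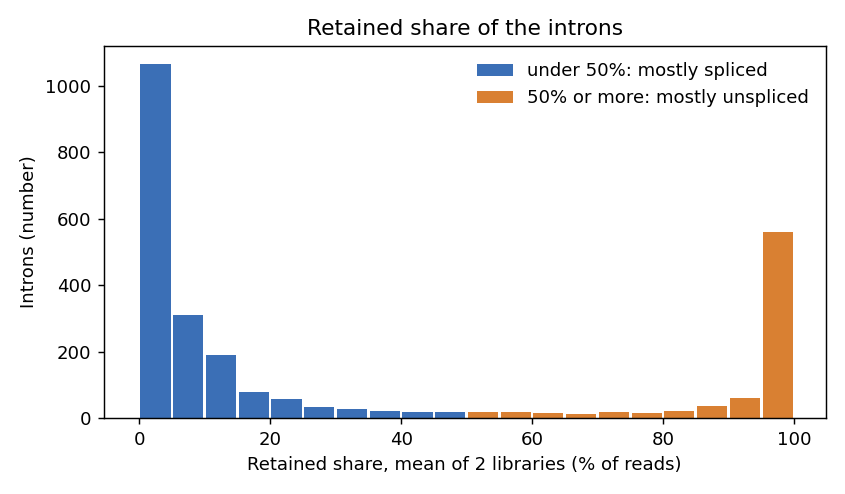
Number of introns by retained share, as the mean of both libraries in bins of 5 points. The lowest bin held 1066 introns and the highest 561, with 13 to 36 introns in each bin between 35% and 90%.

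Reads that kept 1 or more of the 2605 introns numbered 63114 in replicate 1 and 50419 in replicate 2, which is 5.51% and 5.35% of mouse reads. Most of them came from the mostly unspliced group, with 52061 and 43727 reads. Reads keeping a mostly spliced intron numbered 12833 and 8132, or 1.12% and 0.863% of mouse reads, and of those 11.4% and 7.40% kept more than 1 such intron. The introns are thus not independent: 543 genes had 2 or more of them, 154 genes had introns of both groups, and overlapping introns merged into 2303 separate stretches.

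The total read counts were 1172413 (replicate 1) and 957529 (replicate 2), with 1145490 and 941841 of them from mouse. A count of 0 allows up to 3 reads. Per 1000000 mouse reads (CPM), the 6 skeletal muscle markers summed to 261061 and 259138, the 3 fibroblast markers to 18575 and 10908, and the 3 Schwann cell markers to 1678 and 1277. The red cell markers stood at 317 and 674, and of the 2 immune markers 1 was read in both libraries. The endothelial, adipocyte and keratinocyte markers stood between 3.49 and 88.2 CPM. Whether these other cells took part in the retained shares was not tested. Intervals given with shares are 95% Wilson intervals and, like the limit for a count of 0, cover counting error only.

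The libraries were compared by Fisher's exact test of retaining and spliced reads, 2-sided, adjusted by Benjamini-Hochberg over the 9695 tested introns, with a call at an adjusted p under 0.05 and a difference of 10 points or more. Calls were 2 of the 2605 introns (0.0768%), beside 0.0825% of all 9695. At any size of difference 19 passed (0.729%), beside 0.382% of all. Of these 19, 14 were higher in replicate 1, and of the 37 that passed over all tested introns 29 were (0.299% of the 9695). The rule asked for a retaining read in each library, so it drew on these counts and nothing is read from these percentages. Some of the 19 are overlapping introns of 1 gene with the same retaining reads, so they are not separate events. In Atp2a1, for example, overlapping introns share 188 and 50 retaining reads. With 1 library on each side, the p-values treat reads as the units and cover counting error only: they hold no spread between animals and describe these 2 libraries. No mostly unspliced intron passed, while 16 of them had an unadjusted p under 0.05.

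Map7d1, a microtubule-associated protein of the ensconsin family, kept a 96-base coding intron mainly inside exons spliced on both sides. It was retained in 353 of 776 reads in replicate 1 (45.5%, interval 42.0% to 49.0%) and in 195 of 447 in replicate 2 (43.6%, 39.1% to 48.3%). The shares of the libraries lay within each other's intervals. Models of known introns in a new combination (NIC) gave 74.8% of the retaining reads, and the annotated coding transcript Map7d1-201 gave 13.5%. The length is a multiple of 3 and the sequence printed above has no in-frame stop codon, so the retained form keeps the reading frame.

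Tmem52, a membrane protein gene, kept its 115-base coding intron in 131 of 279 reads (47.0%, 41.2% to 52.8%) and 130 of 293 reads (44.4%, 38.8% to 50.1%). The annotated transcript Tmem52-202, which GENCODE types as retained intron, gave 75.5% of the retaining reads. Its printed sequence holds an in-frame stop. A 97-base intron with the same donor and an earlier acceptor shared all the retaining reads and had 32 spliced reads in each library, which placed that intron in the mostly unspliced group. Adding the spliced reads of every overlapping intron lowered the mean share of the 115-base intron to 41.0%.

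Other mostly spliced introns of high share lay at transcript ends, where a longer terminal exon covers the intron. Chpt1, a choline phosphotransferase of phospholipid synthesis, kept a 2441-base last intron in 28 of 62 and 46 of 87 reads (45.2% and 52.9%). All were on the annotated Chpt1-201, whose last exon covers it. With the spliced reads of every overlapping intron added, its shares were 32.2% and 43.4%. Ptov1 kept a 184-base intron of its 3′ UTR in 46.2% and 33.9% of 370 and 289 reads, a difference that did not pass (Fisher's exact test, adjusted p = 0.298). Sec14l1, a lipid-transfer protein of the SEC14 family, kept its last coding intron in 32.8% and 43.3%, with 85.2% of the retaining reads on the annotated Sec14l1-202.

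For these genes a retained intron and an alternative last exon are the same molecule. The same holds at 5′ ends: Hspa5, the endoplasmic reticulum chaperone BiP, kept an 82-base 5′ UTR intron in 61 of 307 and 60 of 300 reads (19.9% and 20.0%), all on the annotated Hspa5-202. Golga7, a partner of a palmitoylating enzyme, kept 34.3% and 24.2% on Golga7-202. Slc35a4, a member of the nucleotide-sugar transporter family, kept a 108-base 5′ UTR intron in 80 of 188 and 64 of 170 reads (42.6% and 37.6%), with 93.8% of the retaining reads on Slc35a4-206. These, together with Prnd, Slc35a4, Fxyd1, Mbd3, Znrf1, Rpl27, Eif3i and Atp5g3, were named because they ranked highest by share or by retaining reads, a ranking added after the values were seen.

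**Figure D2:**
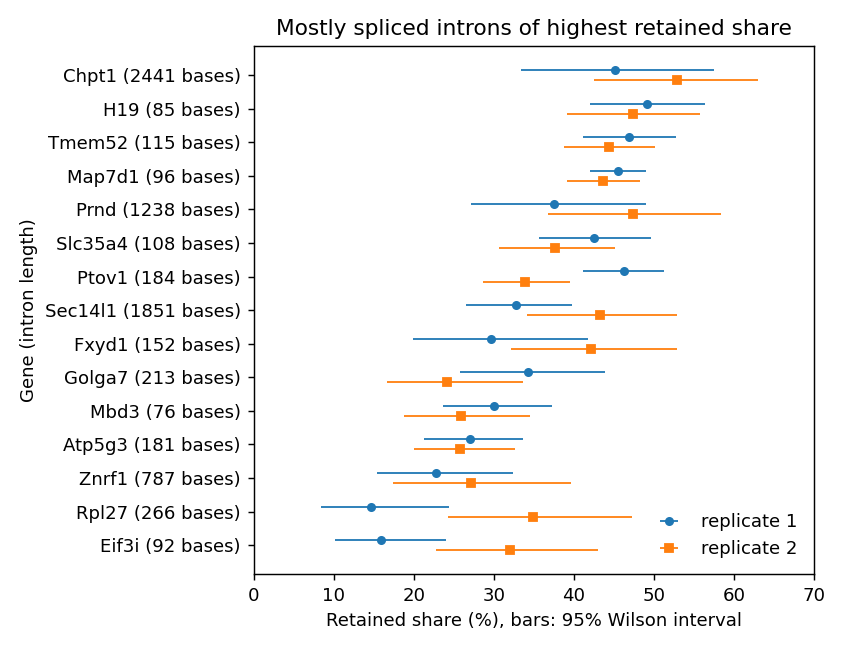
Retained share in each library, with 95% Wilson intervals, for the 15 mostly spliced introns of the highest mean share among introns read 50 times or more in both libraries, 1 intron per gene. The intervals of both libraries overlap for every gene but Ptov1 (46.2% and 33.9%), whose difference did not pass the test between libraries. Rpl27 (14.7% and 34.9%) is the farthest apart with an overlap.

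Some high shares came from the strict definition of a spliced read. The 180-base 5′ UTR intron of Acta1, the skeletal muscle actin, was kept in 104 of 769 and 109 of 737 reads (13.5% and 14.8%). Nearly all Acta1 reads used another intron across the same stretch, and with those reads counted as spliced the shares were 0.120% and 0.130%. The 85-base intron of H19, a maternally expressed non-coding RNA of growing tissue, fell from 49.2% and 47.4% to 2.24% and 2.38% in the same way. Fxyd1, the regulator of the sodium pump known as phospholemman, went from 29.7% and 42.2% to 3.28% and 5.41%. Over the mostly unspliced group, 139 of 778 introns became mostly spliced under that count, 639 stayed at 50% or more and 451 stayed over 90%.

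The most retaining reads of all belonged to introns that were almost never spliced here. H19 kept a 191-base stretch (chr7:142577599-142577789) in 3766 and 2539 reads with no spliced read, almost all on the transcript H19-202. Actn2, the alpha-actinin of the Z-disc, kept a 48-base stretch of its 5′ UTR in 2413 of 2419 and 2122 of 2131 reads, on Actn2-201. In both genes the annotated transcript that splices the stretch out had few or no reads here.

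Cdkn1c, an imprinted inhibitor of the cell cycle, kept its 72-base coding stretch in 2019 of 2030 reads (99.5%) and 1805 of 1811 reads (99.7%). With reads of any overlapping intron counted as spliced, its shares were 87.6% and 87.7%. Maged2, an X-linked gene of the MAGE family, kept 207 bases in 1706 reads of each library with no spliced read. Bsg, the membrane glycoprotein basigin that escorts lactate transporters, kept 115 bases in 836 and 803 reads, and Hsp90ab1, a cytosolic chaperone, kept 37 bases in 898 and 595 reads, both with no spliced read. All 4 are stretches of coding sequence printed above, and in Maged2, Bsg and Hsp90ab1 an annotated coding transcript gave 72.3% to 96.3% of the retaining reads.

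Further mostly unspliced introns with many reads lay in the first or last exon of the retaining transcript. Nipsnap2, a mitochondrial protein, kept a 399-base 3′ UTR intron in 1061 of 1065 and 1216 of 1229 reads. Eif4g2, a translation initiation factor, kept a 138-base 5′ UTR stretch in 756 and 672 reads with none spliced. Sucla2, a subunit of the succinyl-CoA ligase of the citric acid cycle, kept 199 bases in 844 of 848 and 985 of 988 reads. Sparc, a collagen-binding matrix protein, kept a 223-base first intron in 828 of 830 and 563 of 565 reads, 99.9% of them on Sparc-201. In each of these the spliced form was 13 reads or fewer in a library.

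The 10 highest shares among introns with spliced reads in each library were also near complete. Beside Actn2, Cdkn1c, Nipsnap2, Sucla2 and Sparc these were Ndufa4, a protein of the respiratory chain, Txn2, the mitochondrial thioredoxin, Retreg1, a reticulophagy receptor, Ube2l3, a ubiquitin-conjugating enzyme, and the antisense gene Atcayos. Their mean shares lay between 98.7% (Atcayos) and 99.8% (Ndufa4). For Atcayos, reads of the overlapping opposite strand could be told apart only if the counting used strand, which the sources used here do not give.

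Among the gaps of under 30 bases, 8 were of 1 base and all 20 had no spliced read. Oaz1 and Oaz2 encode antizymes, inhibitors of polyamine synthesis whose translation shifts the ribosome by a base, and the annotation writes this shift as a gap. Oaz1 carried gaps of 1 and 4 bases with 1928 and 1979 retaining reads, and Oaz2 carried gaps of the same lengths with 601 and 559. Cfl1, the actin-severing protein cofilin, had a pair of 2-base gaps with 173 and 157 reads. These gaps are listed among the 2605 introns because the rule sets no length, and without them 2585 introns remained.

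Retaining reads of the mostly spliced group came mainly from incomplete models. The ISM class, whose splice junctions are a contiguous part of those of an annotated transcript, gave 58.8 ± 2.84% of them (mean ± SD, n = 2 here and below), annotated models 19.2 ± 3.17%, and new combinations of known introns (NIC) 18.4 ± 1.51%. Of the annotated part, 30.7 ± 0.995% was on models typed as retained intron, 62.2 ± 0.732% on models typed as protein coding and 2.51 ± 0.722% on models typed for nonsense-mediated decay. The exon that held the intron was the first exon of the model in 42.1 ± 0.329% of reads, the last in 36.5 ± 0.243% and an internal one in 21.4 ± 0.572%. A single intron, the last one of the calcium pump gene Atp2a1, weighed heavily in this. Without it the exon was the first in 51.9 ± 1.33%, the last in 21.4 ± 3.09% and internal in 26.8 ± 1.76% of reads, and ISM models gave 51.5 ± 2.07%.

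A first or last exon that covers an intron has no splice junction on one side. Of the 1827 introns, 839 (45.9%) had a retaining read with the intron in an internal exon in each library, while 483 were held only in first exons and 298 only in last exons. A retaining read on an annotated model was found in each library for 327 of them. In the mostly unspliced group the retaining reads were on annotated models in 76.7 ± 0.301% and on ISM models in 7.48 ± 0.557%, and 659 of 778 introns had an annotated retaining model with reads in each library. Whether ISM reads come from shortened molecules was not tested.

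**Figure D3:**
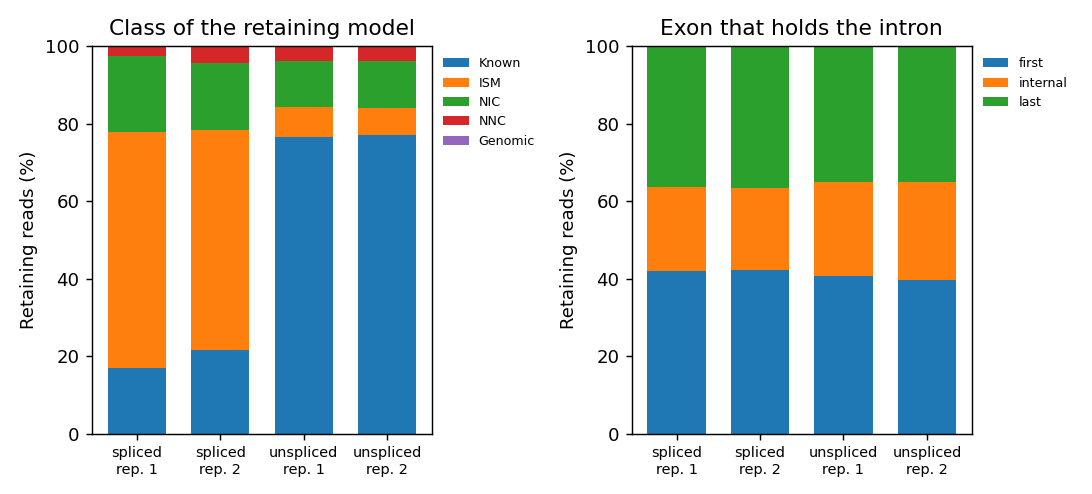
Percent of retaining reads by class of the retaining model (left) and by the exon that holds the intron (right), per library, for mostly spliced and mostly unspliced introns. NNC are models with a new splice site and Genomic are models with unspliced genomic sequence, at 0.0123% of reads or less. ISM gave 60.8% and 56.8% of reads in the mostly spliced group and 7.88% and 7.09% in the other.

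The introns were short. The median length was 216 bases in the mostly spliced group and 245.5 bases in the mostly unspliced group, against 321 bases in the 7090 tested introns that did not meet the rule and 1125 bases over all annotated introns with 20 or more reads. An intron must fit inside an exon to enter, which favours short ones, so the comparison with the 7090 introns is the closer one. Of the mostly spliced introns 88.2% lay in coding sequence, against 96.1% of the 7090, and 8.26% in 5′ UTRs against 2.71%. The first intron of a transcript made up 17.2% and 7.01%, in the same order.

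The mostly unspliced group differed in place: 32.0% lay in coding sequence, 26.9% in 5′ UTRs, 20.3% in 3′ UTRs and 20.8% in transcripts with no coding sequence. In the 7090 tested introns that did not meet the rule the values were 96.1%, 2.71%, 0.804% and 0.353%, in the same order. These are shares of introns that share genes and reads, and no test was made over introns. First introns made up 35.0%, last introns 34.3% and the only intron of a transcript 10.9% of this group. In the 7090 introns these were 7.01%, 11.2% and 0.0564%.

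**Figure D4:**
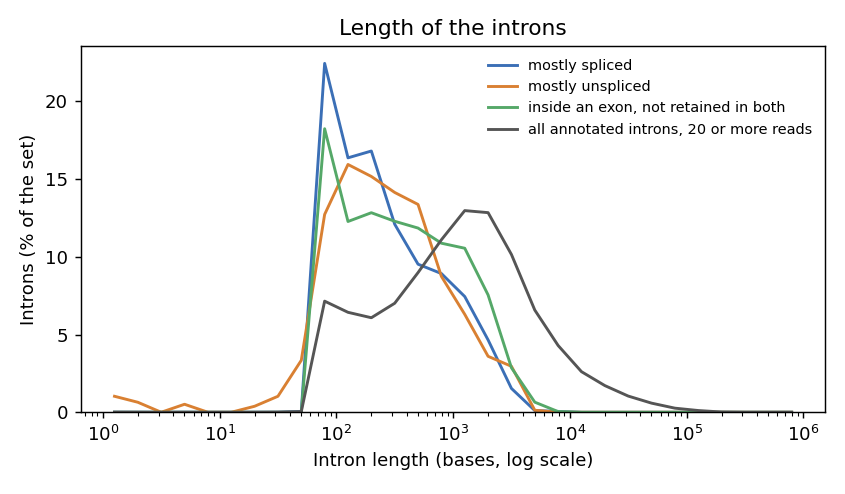
Length of the introns on a log scale, as percent of each set, for the mostly spliced and mostly unspliced introns, the tested introns that did not meet the rule, and all annotated introns with 20 or more reads. The medians are 216, 245.5, 321 and 1125 bases, and the gaps of under 30 bases appear at the left in the mostly unspliced group only.

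Sequence could be read for introns that lie inside an exon of a GENCODE transcript. That was 91.0% of the mostly unspliced introns but 50.6% of the mostly spliced ones and 49.0% of those that did not meet the rule, under the 80% needed, so a check of splice sites or stops over those groups is void. In the mostly unspliced group 586 of 708 introns had GT and AG at their ends (82.8%), 45 had GC and AG, and 77 had other letters. Of its 221 coding introns whose frame could be read, 102 (46.2%) had no in-frame stop codon, and 52 of these also had a length that is a multiple of 3. The 20 gaps of under 30 bases were not left out of these counts. A gap of 1 base cannot have both pairs of end letters, and gaps this short leave little room for a stop.

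Depth set how small a share could be seen. Among tested introns that were mostly spliced, those with 20 to 49 reads met the rule in 14.9% of 2810 cases, and those with 1000 or more in 37.4% of 503. The median share of introns that met it was 12.6% in the first and 0.256% in the second, since a single retaining read is a large share of few reads. Shares were also pooled over all tested introns of a depth range with more spliced than retaining reads, whether or not they met the rule. The pooled share was 4.95% and 3.33% at 20 to 49 reads and 0.217% and 0.138% at 1000 or more. Introns kept in most of their reads were left out of the pool, so these values are low in part by that choice. A retaining read in 1 library only was found in 4740 tested introns, 3441 of them in the deeper replicate 1, and none was found in 2350.

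At the 20-read limit, 27 introns with 20 reads had a median mean share of 36.9%, and 42 introns with 19 reads and a retaining read in each library, just outside, had 71.3%. Inside, Akap8l had 10 retaining reads, Ankrd9 18 and Apex1 14. Outside, AW549877 had 5, Abi2 19 and Adcy9 19.

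Contractile genes are among the most deeply read here. Of 52 contractile genes with 20 or more reads, 31 (59.6%) had 1 or more of the introns, against 20.1% of all 7655 such genes. In the contractile genes 104 of 223 tested introns (46.6%) met the rule, against 26.9% of all 9695. The shares of genes, here and for the lists below, were not matched for depth. The 79 mostly spliced ones had a median share of 0.531% at a median of 7330 reads, against 3.79% at 118 reads over all genes, so the depths differ. At 1000 or more reads, 55 of 127 mostly spliced introns of contractile genes met the rule (43.3%), with a median share of 0.0629%, beside 37.4% and 0.256% for all genes at that depth. At 200 to 999 reads it was 16 of 38 (42.1%) with a median of 1.83%, beside 27.1% and 1.33%. Tnnt3, the fast troponin T, had 17 of the introns, the most of any gene, of which 4 were mostly spliced.

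Tnni2, the fast troponin I, kept a 600-base 5′ UTR intron in 275 of 2423 reads (11.3%, 10.1% to 12.7%) and in 277 of 1432 (19.3%, 17.4% to 21.5%), all on ISM models in the first exon. The difference passed at any size (Fisher's exact test over reads, adjusted p = 1.08e-08) but was under the 10 points set for a call. Myl1, the fast essential light chain, kept its 733-base first intron in 3.19% and 2.43%. Mylpf, the fast regulatory light chain, kept a 177-base intron in 1.01% and 0.774% of 14019 and 12268 reads. Myh8, the perinatal myosin heavy chain, kept a 183-base 5′ UTR intron in 96 of 557 and 26 of 113 reads (17.2% and 23.0%). Myh1, the IIx heavy chain, kept a 285-base 5′ UTR intron in 1.19% and 1.63%, and Actn3, the fast-fibre alpha-actinin, an 81-base last intron in 0.776% and 0.888%. Cryab, a small heat shock protein of muscle, kept 101 bases of its 5′ UTR in 258 and 297 reads with none of exactly that splice.

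Nexn, which encodes the actin-binding protein nexilin, kept an 85-base coding intron in 66 of 347 reads (19.0%, 15.2% to 23.5%) and 77 of 381 (20.2%, 16.5% to 24.5%). The shares of the libraries lay within each other's intervals. Of the retaining reads 93.7% were on ISM models that end in the exon holding the intron, and none had it in an internal exon. The sequence printed above holds an in-frame stop.

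Myh4, the adult fast IIb heavy chain, had 12 of the introns. The 92-base first coding intron was kept in 548 of 17840 reads in replicate 1 (3.07%) and in 1 of 3148 in replicate 2 (0.0318%), and 99.3% of the retaining reads were on ISM models in their first exon. Further introns of Myh4 stood at 433 retaining and 25694 spliced reads against 1 and 6643, and at 432 and 25802 against 2 and 6691. None reached a difference of 10 points.

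Calcium-handling genes had 25 of the introns in 11 of 30 genes (36.7%, against 20.1% of all genes). By intron, 25 of 73 tested (34.2%) met the rule, against 26.9% over all genes. Among mostly spliced tested introns, 16 of 26 met it at 1000 or more reads (61.5%, beside 37.4% for all genes). At 200 to 999 reads it was 3 of 33 (9.09%, beside 27.1%). The 21 mostly spliced introns that met the rule had a median of 0.0746% at a median of 123511 reads. Atp2a1, the fast calcium pump of the sarcoplasmic reticulum, held 13 of these. Its 418-base last intron (chr7:126446127-126446544) in the 3′ UTR had the most retaining reads of any mostly spliced intron, 2896 of 75755 (3.82%, 3.69% to 3.96%) and 1439 of 47991 (3.00%, 2.85% to 3.15%). ISM models that keep it in their last exon gave 89.2%. Sypl2, the triad protein mitsugumin 29, kept 0.843% and 0.931%, and Casq1, the calcium store protein calsequestrin, 6 of 9992 and 1 of 7621 reads. Hrc, Cacnb1 and Jsrp1 had 5 or fewer retaining reads in sum each.

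The mostly unspliced introns named for calcium genes lay in 3′ UTRs. Calm3, a calmodulin gene, kept a 1019-base intron in 374 and 260 reads, Camk2b 30 bases in 160 and 100, and Orai1, the pore of store-operated calcium entry, 93 bases in 91 and 70, all with no read of exactly that splice.

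Of 69 energy genes, 36 (52.2%) had the introns, against 20.1% of all genes. By intron, 86 of 212 tested (40.6%) met the rule, against 26.9% over all genes. Among mostly spliced tested introns, 51 of 125 met it at 1000 or more reads (40.8%, beside 37.4% for all genes). At 200 to 999 reads it was 19 of 58 (32.8%, beside 27.1%), and at 50 to 199 reads 2 of 11 (18.2%, beside 19.4%). The 73 mostly spliced introns that met the rule had a median share of 0.349% at 1988 reads. Aldoa, the glycolytic aldolase of muscle, kept the printed 95-base coding intron in 190 of 9804 (1.94%, 1.68% to 2.23%) and 130 of 7578 reads (1.72%, 1.45% to 2.03%). ISM models in their first exon gave 94.4% of those reads, and with internal exons only the shares were 0.0935% and 0.0537%. Ldha, lactate dehydrogenase A, kept 0.559% and 0.336% of its first intron, and Tpi1, triosephosphate isomerase, an 84-base intron in 22 of 3565 and 32 of 2587 reads.

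Slc25a3, the mitochondrial phosphate carrier, kept a 5′ UTR intron in 3.18% and 4.56%. Atp5g3, a gene for the c-ring subunit of ATP synthase, kept one in 27.0% and 25.8%, which became 9.12% and 9.48% with reads of overlapping introns counted as spliced. Slc2a4, the insulin-regulated glucose transporter, and Gbe1, the glycogen branching enzyme, had mostly unspliced introns, with 146 of 148 and 111 of 115 reads retained in Slc2a4 and all 62 and 81 reads in Gbe1.

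Splicing and RNA-binding genes had a median share of 11.1% over 58 mostly spliced introns in 33 genes, at a median of 72.5 reads, the fewest of the 6 functional groups. By depth, their median was 20.4% at 20 to 49 reads beside 12.6% for all genes, 7.19% at 50 to 199 reads beside 4.11%, and 1.28% at 200 to 999 reads beside 1.33%. These rest on 24, 15 and 19 introns. Of the 86 genes read, 38 (44.2%) had the introns, against 20.1% of all genes. Of the 214 tested introns of these genes 100 (46.7%) met the rule, against 26.9% over all genes.

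Ddx5, an RNA helicase, kept a 1265-base coding intron in 80 of 405 reads (19.8%, 16.2% to 23.9%) and 29 of 284 (10.2%, 7.20% to 14.3%). The difference did not pass (Fisher's exact test, adjusted p = 0.134). The annotated Ddx5-208, typed for nonsense-mediated decay, gave 58.7% of the retaining reads. Srsf5 and Srsf7, SR proteins that promote exon use, kept introns of 1229 and 874 bases, each with an in-frame stop. Srsf5 stood at 28 of 88 and 9 of 67 reads, and Srsf7 at 10 of 38 and 8 of 37, all in internal exons.

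Hnrnpl, which represses exons by binding CA repeats, kept the printed 111-base intron in 18 of 96 and 28 of 108 reads (18.8% and 25.9%). This intron has no in-frame stop and a length that is a multiple of 3, and the coding transcript Hnrnpl-209 gave 43.5% of the retaining reads. Rbm39 kept a 1494-base 3′ UTR intron in 11 of 45 and 11 of 32 reads, and Tardbp, the TDP-43 gene known for controlling its own 3′ UTR splicing, a 721-base one in 12 of 24 and 6 of 25. With overlapping introns counted as spliced, Rbm39 fell to 7.05% and 8.59%.

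Several genes of this group had mostly unspliced introns in UTRs, and in Srsf2, Hnrnpu and Hnrnpd annotated coding transcripts keep the stretch in their first or last exon. Srsf2 kept 502 bases of its 3′ UTR in 116 of 126 and 99 of 107 reads. Hnrnpu kept 3908 bases in 223 and 207 reads and Hnrnpd 127 bases in 124 and 110, with none of exactly that splice. Hnrnpf kept 309 bases of its 5′ UTR in 87 and 63 reads, all on ISM models and none on an annotated one, and stood at 58.0% and 52.9% once overlapping introns counted as spliced.

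In ribosome and translation genes 54 of 265 tested introns met the rule (20.4%, against 26.9% over all genes). They lay in 38 of 139 genes (27.3%, against 20.1% of all genes). The 46 mostly spliced ones had a median of 2.68% at 292 reads. Most named ones were 5′ UTR introns kept in a longer annotated first exon. Rpl8 kept 193 bases in 48 of 271 and 39 of 179 reads (17.7% and 21.8%), Rpl28 322 bases in 20 of 100 and 22 of 80, Rps27a 95 bases in 25 of 178 and 25 of 106, and Rpl41 114 bases in 15 of 374 and 22 of 389. In Rpl27, 11 of 75 and 22 of 63 reads kept a 266-base intron, a difference that did not pass (Fisher's exact test, adjusted p = 0.984).

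Eif5, an initiation factor, kept 115 bases of its 5′ UTR in 9.82% and 12.2%, and Eef2, the elongation factor that moves the ribosome, a 75-base coding intron in 3.82% and 5.20%. Eif2s2, a subunit of initiation factor eIF2, kept a 69-base 3′ UTR stretch in 342 and 405 reads, with none spliced. Rpl29 kept its printed 96 bases in all 76 and 45 reads. Rpl3l, the muscle-specific relative of ribosomal protein L3, kept a 98-base 5′ UTR intron in 79 of 85 and 70 of 75 reads, but in 15.4% and 17.6% when overlapping introns counted as spliced.

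Matrix genes had 23 of the introns in 12 of 32 genes (37.5%, against 20.1% of all genes). The 17 mostly spliced ones had a median of 1.22% at 316 reads. Col1a1, a chain of collagen I, kept an 87-base coding intron in 40 of 8398 and 25 of 3466 reads (0.476% and 0.721%), and Col1a2, the other chain, a 91-base one in 29 of 1005 and 21 of 725 (2.89% and 2.90%). Col3a1 stood at 20 of 11078 and 4 of 5261 reads. Fstl1, Col5a2 and Lamb2 had 4 to 9 retaining reads in sum. In whole tissue, fewer cells of a type and less RNA per cell cannot be told apart, and the fibroblast markers stood at 18575 and 10908 CPM in the libraries, while a retained share is taken within a gene. Vim, Mmp2 and Bgn had mostly unspliced UTR introns, with mean shares of 99.8%, 95.2% and 100%.

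Of 7 genes known for detained introns, which stay in nuclear transcripts, 5 (71.4%) had 10 of the introns, against 20.1% of all genes. Of the 16 tested introns of this list 62.5% met the rule, against 26.9% over all genes. Of the 10, 5 were mostly spliced, at a median of 755 reads against 118 over all genes. The intron share of this list was thus not matched for depth. Mat2a, which makes the methyl donor S-adenosylmethionine and is known for regulated retention, kept a 585-base intron in 33 of 453 and 21 of 315 reads (7.28% and 6.67%). It also had a 1017-base stretch kept in 451 of 453 and 314 of 314 reads, 89.3% of them on the coding transcript Mat2a-201. Apoe, an apolipoprotein, kept a 386-base stretch in 166 and 113 reads with none of exactly that splice. Of these reads 97.5% were on the coding transcript Apoe-206, which holds the stretch in its last exon. Nxf1, the mRNA export receptor, kept a 1765-base intron in 4 of 30 and 3 of 25 reads. Clk4, a kinase of SR proteins, stood at 5 of 9 and 2 of 11, and Ogt, the enzyme of O-GlcNAc addition, at 9 of 13 and 4 of 9, with wide intervals, 26.7% to 81.1% for Clk4 in replicate 1. The Ogt intron is a 107-base one of the 5′ UTR, kept in first exons, with 53.8% of its retaining reads on the coding Ogt-201. Whether the introns named here are those known as detained was not tested.

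Mief2, an adaptor that recruits the fission protein Drp1 to mitochondria, was called for its 194-base coding intron. Its retained share was 5.50% in replicate 1 (6 of 109 reads, 2.55% to 11.5%) and 26.6% in replicate 2 (42 of 158, 20.3% to 34.0%), with an adjusted p of 0.00253 by Fisher's exact test over reads, which covers counting error only. In internal exons the shares were 4.63% and 9.38%. Eno3, the muscle enolase, was called for a 296-base intron with 29 of 40 reads (72.5%) and 2 of 16 reads (12.5%) retained, with an adjusted p of 0.0180 by the same test. That intron overlaps the main one of the gene, and with those reads as spliced its shares were 0.283% and 0.0204%.

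The differences of under 10 points that passed included introns of Myh4, Atp2a1, Eno3, Acta1, Tnni2, Tnnt3 and Cdkn1c. A 2926-base coding intron of Atp2a1 was kept in 10 reads against 92805 spliced in replicate 1 and in 241 against 58924 in replicate 2, the reverse of the direction in Myh4. A 1409-base intron of Tnnt3 was kept in 7.74% and 0.957%. A 136-base 5′ UTR intron of Cdkn1c stood at 2.47% and 8.52%.

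The shares of both libraries are set side by side for introns with 20 or more reads in each. Of 1426 mostly spliced ones, 1367 (95.9%) lay within 10 points of each other, with a median absolute difference of 0.960 points. The rule asked for a retaining read in each library, and 1376 of the 1827 mostly spliced introns had a mean share under 10%, so most such introns could differ little and nothing is read from this closeness.

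**Figure D5:**
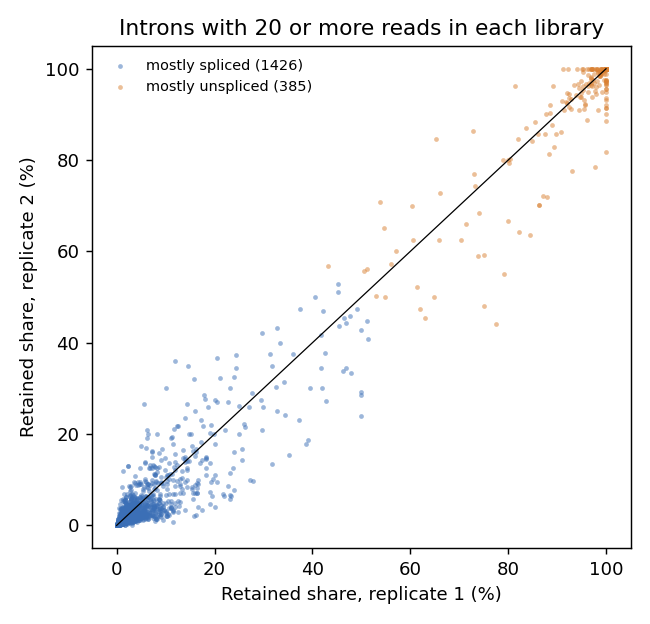
Retained share in replicate 2 against replicate 1 and the line of equal shares, for introns of 20 or more reads in both libraries. The 1426 mostly spliced introns crowd near 0 and the 385 mostly unspliced ones near 100%, so that few points lie where the libraries could differ by much.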

How the data were processed

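Long reads of total RNA from 2 gastrocnemius libraries were analysed. The deposited counts are whole reads per transcript model and library, not normalized, with models of 1 or more read listed. Per the file headers and deposited descriptions, alignment was to mm10 and GENCODE M21 was the annotation for the models, whose files name TALON in their attributes. An aligner and its version were not given in the sources used here. Introns were taken from the deposited annotations, and retaining and spliced reads were summed over models of a gene. CPM is reads per 1000000 mouse reads. Coding regions and sequences came from the GENCODE M21 annotation and transcripts, on the same build, and an intron was called coding where 1 or more annotated model splices it within coding sequence. No genome sequence was used.

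The members and gene lists were chosen with earlier results of these data known, and so were the tests. Genes were named by a rule that took, with 1 intron per gene, the 12 with most retaining reads, the 10 of highest share with 20 or more reads and spliced reads in each library, all called introns, and up to 4 per list. Mostly spliced introns were then added after the values were seen: 25 by retaining reads, 15 by share with 50 or more reads in each library, and up to 6 per list. Libraries were compared by Fisher's exact test with the Benjamini-Hochberg adjustment, which was tested on simulated data. Alternatives changed the read minimum, the retaining classes and exons, the definition of a spliced read, the scaling and the libraries. Python 3.11.15, numpy 2.4.6, scipy 1.17.1, pandas 2.3.3 and matplotlib 3.10.9 were used, and R 4.3.3 with DESeq2 1.42.0 and edgeR 4.0.16 gave alternative library sizes of gene counts.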

Additional observations from a re-analysis of the deposited data

How the results depend on the processing

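The number of introns, 2605, was 881 with annotated retaining models only, 953 with the intron in an internal exon, 1017 with 5 or more retaining reads in each library, and 2854 to 5025 with 1 library left out, 5025 being replicate 1 alone. Under the other settings tried it was within 1.5 times. The median share over all introns, 8.0%, was 91.1% with annotated models only, 10.2% without ISM models, 8.61% with 1-exon models counted, 3.77% in internal exons, 5.91% with reads of overlapping introns as spliced, 3.72% at 50 or more reads, 96.7% with 5 or more retaining reads, 4.67% with a spliced read in each library, 6.82% with 1 intron per overlapping set, and 2.63% to 2.70% with 1 library left out. For mostly spliced introns, 3.79%, it was 7.01%, 4.00% (1-exon models), 2.99% (internal), 2.49% (50 reads), 10.4% (5 retaining reads) and 2.17% with either library left out, the first being annotated models only. These alternatives of the second median, the length limit of 30 bases and the overlapping sets were chosen after seeing the data.

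The annotated share of retaining reads, 67.4%, was 100% by construction with annotated models only, 80.2% without ISM, 48.1% in internal exons, 70.3% with 5 or more retaining reads, 57.7% with spliced reads in each, 70.6% for introns of 30 bases or more, and 62.2% to 68.3% with 1 library left out. The ISM share, 15.7%, was 0% by construction in the first of these and without ISM, 4.17% in internal exons, 26.6% with spliced reads in each, 13.0% without the Atp2a1 intron of most retaining reads (also chosen after seeing the data), and 14.6% to 19.8% with 1 library left out. Calls over all tested introns, 8, were 37 at any difference and 0 with annotated models only. Among the 2605 introns the 2 calls were 19 at any difference, 1 with 20 reads in each library and 0 with annotated models only, where 17 had an unadjusted p under 0.05 by Fisher's exact test. Other causes of these changes were not tested. The summed level of retaining reads, 54315 CPM, lay within 1 SD under each scaling. Of the 94 named introns, some had no read in a library under a setting and gave no share there. Where there was one, it moved beyond the spread of the libraries in 60 and not in 21 with internal exons only. With annotated models only it moved in 47 and not in 44. With overlapping introns as spliced it moved in 33 and not in 61, and without Genomic models in 0. For introns at 100% in both libraries the spread is 0, so any change counted as moved. Bsg is an example, at 99.9% with overlapping introns as spliced. The counts of moved introns thus include very small changes. Depth limits the shares, since 817 mostly spliced introns rest on 2 or fewer retaining reads in each library. No paired analysis was possible because both libraries form 1 group.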
